A study of Mus musculus with 2 samples.

Results

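The LIF-STAT3 pathway loci are stretches of the mouse genome around 5 genes, Lif, Lifr, Il6st, Stat3 and Socs3, read here for p53 peaks. A peak is a region where DNA pulled down with a p53 antibody was enriched over input DNA. Peaks were taken when their midpoint lay in a window given for each gene on build mm9: chromosome 11 from 4130000 to 4200000 for Lif, chromosome 15 from 7010000 to 7200000 for Lifr, chromosome 13 from 113230000 to 113330000 for Il6st, chromosome 11 from 100720000 to 100830000 for Stat3 and chromosome 11 from 117800000 to 117860000 for Socs3. The windows held 73 of the 92924 peaks in the list, or 0.0786%: 17 for Lif, 20 for Lifr, 8 for Il6st, 14 for Stat3 and 14 for Socs3. The rule names genes and positions and uses no peak value, although it was set with earlier results of this list known.

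The libraries came from mouse embryonic stem cells of the strain C57BL/6X129Sv mix at passages below 20, grown in serum with 1000 units/ml of leukemia inhibitory factor (LIF). All cells were treated for 8 hours with Nutlin, a small molecule that keeps the ubiquitin ligase Mdm2 off p53, so that p53 builds up; its dose is given as 20, in µM in one place and mM in another. The series holds 1 library of chromatin immunoprecipitated with the p53 antibody M-19 and 1 library of input chromatin without antibody, both from Nutlin-treated cells in LIF. With no untreated library, no library without LIF and no replicate, no value here measures a response to Nutlin or to LIF, and no test between samples was possible. The peak list holds no RNA values, so the labelled cell type was not checked against marker genes.

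LIF is a cytokine of the interleukin-6 family that keeps mouse embryonic stem cells undifferentiated in culture. It binds the receptor chain LIFR, which pairs with the signal-transducing chain gp130, the product of Il6st. JAK kinases bound to the receptor then phosphorylate STAT3, a transcription factor that moves to the nucleus and activates its targets. One of them is Socs3, whose product binds gp130 and JAK and shuts the signal down. Lif itself is known as a p53 target gene in the mouse uterus. In the RefSeq gene order of GRCm38, Lif lies between Osm, which encodes the related cytokine oncostatin M, and Hormad2, a gene of meiotic chromosomes. Lifr lies between Osmr, the oncostatin M receptor gene, and Egflam. Il6st lies between Ankrd55 and Il31ra, the interleukin-31 receptor gene. Stat3 lies between its relative Stat5a and Cavin1, and Socs3 between Tha1 and Pgs1. Gene positions on mm9 were not used here, so a peak is placed in a window and not at a promoter, exon or intron, and a window may reach into a neighbouring gene.

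The promoters of Lif and Socs3 are shown because their windows held the most peaks per Mb and the highest scores. They are RefSeq sequences of GRCm38.p6, from 250 bases before to 50 bases after the gene start, each written 5′ to 3′ along the strand of the gene. Capitals mark the STAT core TTCNNNGAA. The Lif promoter lies at chr11:4257318-4257617 on the plus strand and the Socs3 promoter at chr11:117969317-117969616 on the minus strand.
Lif: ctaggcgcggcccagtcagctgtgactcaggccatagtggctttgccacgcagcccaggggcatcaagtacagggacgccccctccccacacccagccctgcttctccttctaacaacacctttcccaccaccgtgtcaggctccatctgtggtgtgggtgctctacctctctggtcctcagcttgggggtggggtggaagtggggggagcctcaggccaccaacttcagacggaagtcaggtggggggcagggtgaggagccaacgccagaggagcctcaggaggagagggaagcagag
Socs3: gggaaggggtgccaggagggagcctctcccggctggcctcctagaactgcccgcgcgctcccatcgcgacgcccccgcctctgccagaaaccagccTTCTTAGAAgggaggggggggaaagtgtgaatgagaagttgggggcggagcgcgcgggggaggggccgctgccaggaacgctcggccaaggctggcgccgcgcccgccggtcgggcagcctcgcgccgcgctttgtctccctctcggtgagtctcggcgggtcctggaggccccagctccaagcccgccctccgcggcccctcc
These GRCm38 positions cannot be laid against the mm9 peaks, so whether a peak covers either promoter was not determined. Promoters were found for all 5 genes (6 sequences, with 2 for Lifr). The STAT core, which reads the same on both strands, was present in the promoter of 1 of the 5, Socs3, at bases 97 to 105 of the 300. It was present in 8.30% of all 32851 RefSeq mouse promoters of this length. The 10-letter p53 half-site, a palindrome as a pattern and so also searched on both strands, was in none of the 6 sequences, against 8.36% of all promoters. A pair of such half-sites up to 13 bases apart was likewise in none of the 6, and in 24 of the 32851 (0.0731%). Among 25 other genes of gp130 signalling, 21 had a promoter in the table. The STAT core was in 1 of these 21, Cish, which encodes another feedback inhibitor of cytokine receptors. The p53 half-site was in 3 of them: Il6, a cytokine that signals through gp130, Pias3, an inhibitor of STAT3, and Pim1, a kinase gene induced by STAT signalling. Counted by gene, as here, the STAT core and the single p53 half-site were each in 9.55% of all 27025 genes of the table. These are matches of letters in a short window and say nothing of whether a factor binds there or elsewhere.

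Each of the LIF-STAT3 windows held more p53 peaks per Mb than the rest of its chromosome (2.08 to 3.98 times). Against the 1 Mb on each side the ratio was only 1.18 at Socs3 and 1.30 at Stat3, and among peaks of score 100 or more the Stat3 ratio to its chromosome was 1.08. The scores of the peaks were like those of the whole list. All windows together covered 530 kb. The peaks carry the score of the authors' peak caller, which starts at 50 in this list and grows with the evidence for enrichment over input. Across the 73 peaks the median score was 86.7 (exact 95% order-statistic interval 74.3 to 107), against 87.5 in the whole list. A score of 100 or more was reached by 32 of the 73 (43.8%, exact 95% binomial interval 32.2% to 55.9%), against 43.0% of the whole list. A score of 1000 or more was reached by 4 of the 73 (5.48%, 1.51% to 13.4%), against 5.77% of the whole list. Both shares were close to the background. None of the 73 peaks had the score of exactly 3100 at which many peaks of the list sit, and none was wider than 4000 bases. The number of reads behind a peak is unknown, and intervals here cover the counting error of peaks only and treat them as independent, which neighbouring peaks are not.

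**Figure D1:**
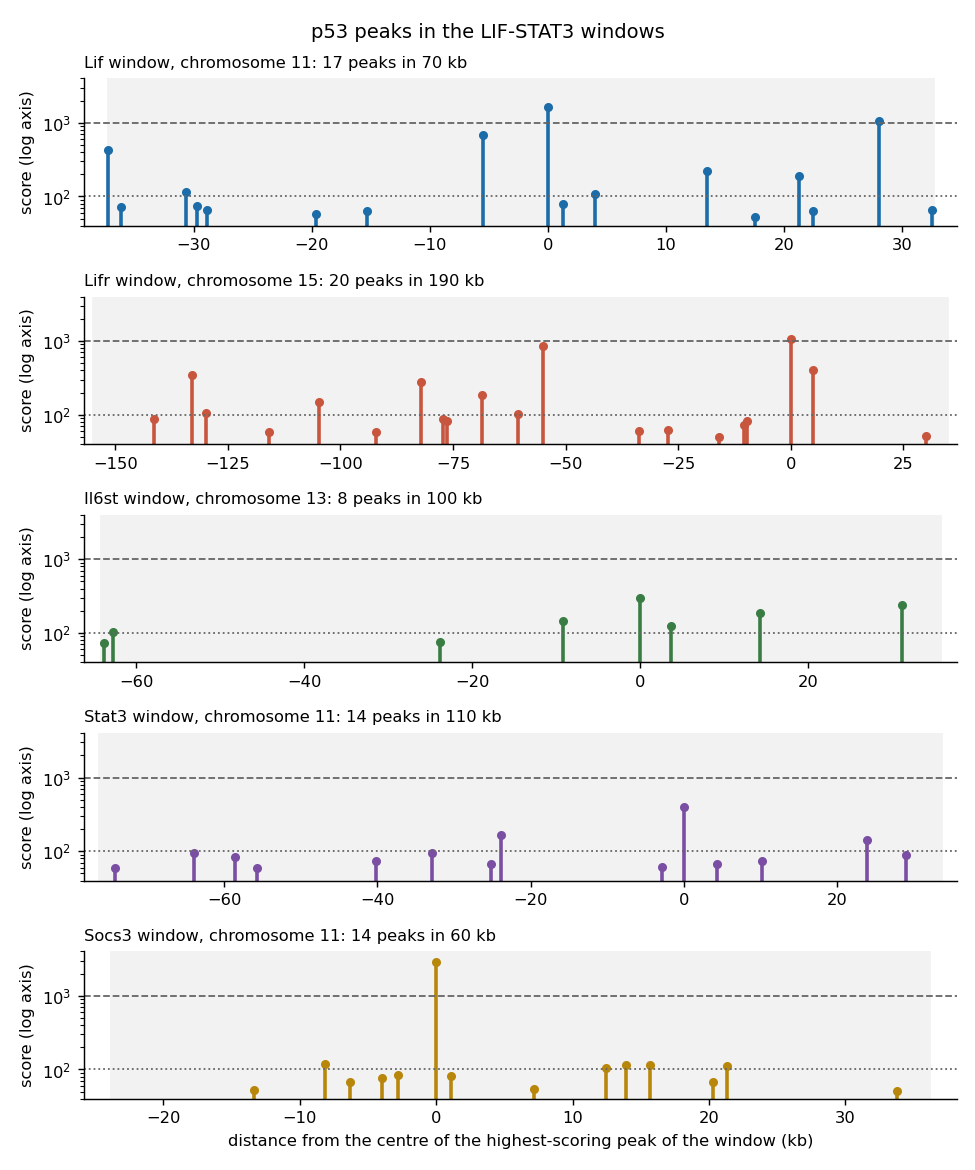
Each stem is a p53 peak, placed by the distance of its midpoint from the centre of the highest-scoring peak of its window (kb), with its score on a log axis; grey marks the window, the dotted line a score of 100 and the dashed line 1000. Lif had 2 peaks above the dashed line, Lifr and Socs3 had 1 each, and Il6st and Stat3 had none.

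With the windows as given, the ligand gene Lif had the densest one and the most peaks of score 1000 or more. Its 17 peaks in 70 kb scored from 52.94 to 1641.17, with a median of 80.1 (64.6 to 218), against 86.3 on the rest of chromosome 11. The highest peak lay from 4166783 to 4167778, was 996 bases wide and had rank 3262 in the whole list and 268 on chromosome 11. A further strong peak of score 1042.93 lay 28.1 kb away, from 4195068 to 4195645, and was 578 bases wide. Both belong to the upper 5.57% of the list. A peak of score 675.49, from 4160736 to 4162849, was 2114 bases wide, the widest of the 73. Of 4221 peaks with scores from 500 to under 1000 in the list, 24 (0.569%) were as wide, and the median width of the 4221 was 714 bases. This peak was compared because it was the widest, a choice that favours a small share. At the left edge of the window, a peak of score 432.68 from 4129823 to 4130233 was narrow for its score, at 411 bases. The other peaks above 100 were weaker. They scored 218.23 (4180513 to 4180972, 460 bases), 189.33 (4188189 to 4188895, 707 bases), 115.54 (4136252 to 4136947, 696 bases) and 106.98 (4170875 to 4171623, 749 bases). The remaining 9 scored at most 80.09. Peaks of 100 or more were thus 8 of 17 (47.1%, 23.0% to 72.2%), against 41.4% on chromosome 11 as a whole, and peaks of 1000 or more were 2 of 17 (11.8%, 1.46% to 36.4%), against 5.57%. The intervals hold the chromosome's shares, so no difference in strength was detectable with 17 peaks. With peaks up to 1 kb apart merged into 12 regions, the median score of the window was 1.67 times that of the rest of the chromosome, against 0.93 times without merging. A merged region took the highest score of its peaks. Every Lif peak absorbed in this way scored at most 80.09, so the rise came with the loss of weak peaks and does not show stronger ones. The closest pair was 333 bases apart, from 4136252 to 4136947 and from 4137281 to 4137812, and a further peak, of score 64.61, followed after another 372 bases.

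Peaks in the window of Lifr, the gene of the ligand-binding receptor chain, were spread over its whole length. Its 20 peaks in 190 kb scored from 50.02 to 1052.79, with a median of 87.6 (62.2 to 184), against 88.6 on the rest of chromosome 15. The highest peak, of 1052.79, lay from 7164521 to 7165394 and was 874 bases wide, with rank 5119 in the list and 227 on the chromosome. The next was 846.07, from 7109551 to 7110263 and 713 bases wide. A score of 406.63 belonged to a peak 664 bases wide from 7169590 to 7170253, beside the highest one. The first 2 stood apart from the rest of the window, and the last was close to the scores that follow. Scores of 349.86 (7031639 to 7032290, 652 bases) and 278.18 (7082684 to 7083179, 496 bases) came next. Lower scores were 183.97 (7096202 to 7096768, 567 bases), 150.72 (7059858 to 7060545, 688 bases), 106.96 (7034843 to 7035384, 542 bases) and 101.19 (7104018 to 7104646, 629 bases). The remaining 11 peaks scored at most 88.55. In all, 9 of 20 reached 100 (45.0%, 23.1% to 68.5%), against 43.0% on chromosome 15, and 1 of 20 reached 1000 (5%, 0.127% to 24.9%), against 5.94%. The shares were near those of the chromosome. The nearest other peak of 1000 or more on chromosome 15 was 327 kb from the highest one, from 6837736 to 6838517 with a score of 1080.72. The closest pair of all windows was here, 80 bases apart, from 7154511 to 7154820 and from 7154901 to 7155443, with scores of 72.14 and 82.81.

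Il6st, the gene of gp130, had the fewest peaks and the highest median score. Its 8 peaks in 100 kb had a median of 136 (72.7 to 301), against 87.8 on the rest of chromosome 13, but no score above 300.93. With 8 peaks the interval holds the chromosome's median. The highest peak lay from 113293940 to 113294449 and was 510 bases wide, with rank 14364 in the list and 592 on the chromosome. The next scores were 237.16 (113325074 to 113325668, 595 bases), 186.72 (113308126 to 113308815, 690 bases) and 147.28 (113284823 to 113285150, 328 bases). Then followed 124.56 (113297705 to 113298144, 440 bases) and 102.87 (113231179 to 113231683, 505 bases), and 2 peaks of 76.10 and 72.68. These peaks were of middling strength, all below a score of 1000. A score of 100 or more was seen in 6 of 8 (75%, 34.9% to 96.8%), against 43.9% of chromosome 13, and the interval holds that share. None of 8 reached 1000, which allows a share of up to 36.9% by the exact interval, against 5.75% on the chromosome. The nearest peak of 1000 or more lay outside the window, 92.8 kb from the highest peak, from 113200860 to 113201880 with a score of 1524.20. The closest pair, from 113230127 to 113230581 and from 113231179 to 113231683, was 597 bases apart. To its right came 38.4 kb without a peak, the longest gap inside any of the windows.

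Stat3, the gene of the transcription factor of the pathway, had mostly weak peaks. Its 14 peaks in 110 kb scored from 58.34 to 401.17, with a median of 79.3 (60.2 to 141), against 86.3 on the rest of chromosome 11. A single peak stood out, of score 401.17 from 100795994 to 100796605, 612 bases wide, with rank 11464 in the list and 826 on the chromosome. Scores of 167.03 (100772084 to 100772883, 800 bases) and 140.52 (100819904 to 100820539, 636 bases) were the others above 100. The remaining 11 scored at most 94.77. So 3 of 14 peaks reached 100 (21.4%, 4.66% to 50.8%), the lowest share of the windows, against 41.4% on chromosome 11, a difference within the counting error of 14 peaks. None of 14 reached 1000, which allows a share of up to 23.2%, against 5.57% on the chromosome. The nearest peak of 1000 or more was 511 kb from the highest one, from 100284697 to 100285896 with a score of 2815.96. The closest pair was 692 bases apart, from 100770939 to 100771391 and from 100772084 to 100772883.

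Socs3, the gene of the feedback inhibitor, had a single very strong peak among weak ones. That peak, from 117823328 to 117824262 and 935 bases wide, scored 2916.95, the highest of the 73, with rank 1634 in the list (upper 1.76%) and 130 on chromosome 11. No other peak of the window exceeded 119.73, the score of a peak 635 bases wide from 117815320 to 117815954. The rest of those above 100 were nearly equal in score. They had 115.21 (117839227 to 117839777, 551 bases), 113.96 (117837367 to 117838110, 744 bases), 113.05 (117844885 to 117845403, 519 bases) and 104.56 (117835853 to 117836617, 765 bases). The remaining 8 of the 14 peaks scored from 51.73 to 83.02, and the median of the window was 82.0 (55.1 to 115), against 86.3 on the rest of the chromosome. Scores of 100 or more made up 6 of 14 (42.9%, 17.7% to 71.1%), against 41.4% on chromosome 11, and scores of 1000 or more 1 of 14 (7.14%, 0.181% to 33.9%), against 5.57%. The closest pair of the window was the strong peak and its right neighbour, from 117824571 to 117825170 with a score of 81.05, which started 308 bases further on. The next peak of 1000 or more lay beyond the window, 45.2 kb away, from 117868501 to 117869577 with a score of 1320.15. The Socs3 window sits in a crowded megabase near the end of chromosome 11, from 117000001 to 118000000, and held 14 of its 226 peaks (6.19%). The strong peak ranked 5 in that megabase, where 17 peaks reached 1000 and the highest scored 3205.24.

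**Figure D2:**
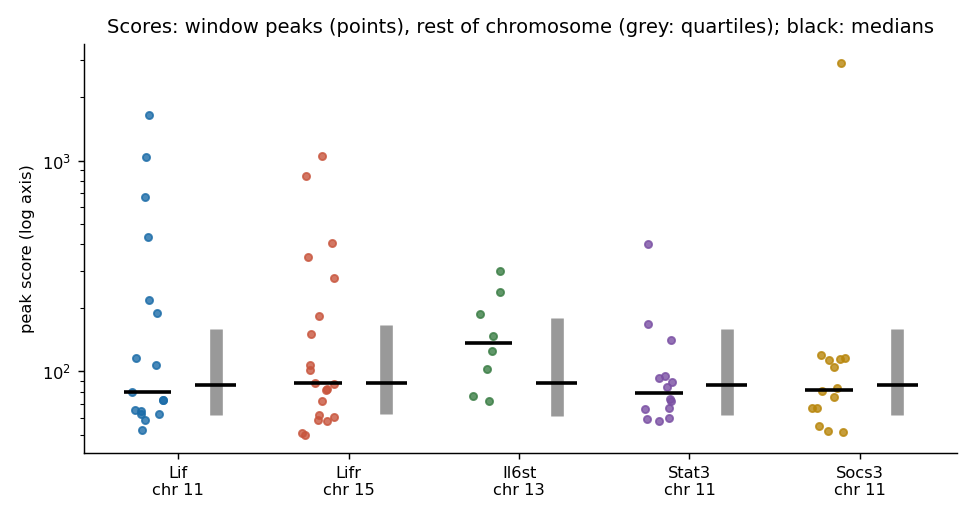
For each gene the points on the left are the scores of the peaks in its window (log axis), with their median as a black line, and the grey bar on the right spans the quartiles of the rest of its chromosome, with its median. The medians of Lif, Lifr, Stat3 and Socs3 (79.3 to 87.6) sit just below those of their chromosomes (86.3 to 88.6), and that of Il6st (136) sits above (87.8).

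Peak density was higher in each of the windows than on the rest of the chromosome, by 2.08 to 3.98 times. Lif had 243 peaks per Mb (exact 95% Poisson interval 141 to 389), against 61.1 on the rest of chromosome 11, a ratio of 3.98 (exact conditional 95% interval 2.32 to 6.37). Socs3 had 233 per Mb (128 to 391), against 61.1, a ratio of 3.82 (2.09 to 6.41). Stat3 had 127 per Mb (69.6 to 214), against 61.1, a ratio of 2.08 (1.14 to 3.50). On the other chromosomes the ratios lay between these. Lifr had 105 per Mb (64.3 to 163), against 39.99 on the rest of chromosome 15, a ratio of 2.63 (1.61 to 4.07). Il6st had 80.0 per Mb (34.5 to 158), against 30.3 on the rest of chromosome 13, a ratio of 2.64 (1.14 to 5.21), and 4.52 among peaks of 100 or more. In the order Lif, Socs3, Stat3, Lifr, Il6st, neighbours did not differ beyond counting error. Of 10 pairs of windows, 4 had a density ratio whose interval excluded 1: Lif over Lifr (2.31, 1.14 to 4.64), Lif over Il6st (3.04, 1.24 to 8.13), Socs3 over Lifr (2.22, 1.04 to 4.61) and Socs3 over Il6st (2.92, 1.14 to 8.02). The intervals were not adjusted for the number of pairs. All 4 set a window on chromosome 11 (61.1 per Mb outside the window) against one on chromosome 15 (39.99) or 13 (30.3). They thus include the difference between chromosomes. The ratios of these windows to the rest of their own chromosomes, given above, had overlapping intervals.

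**Figure D3:**
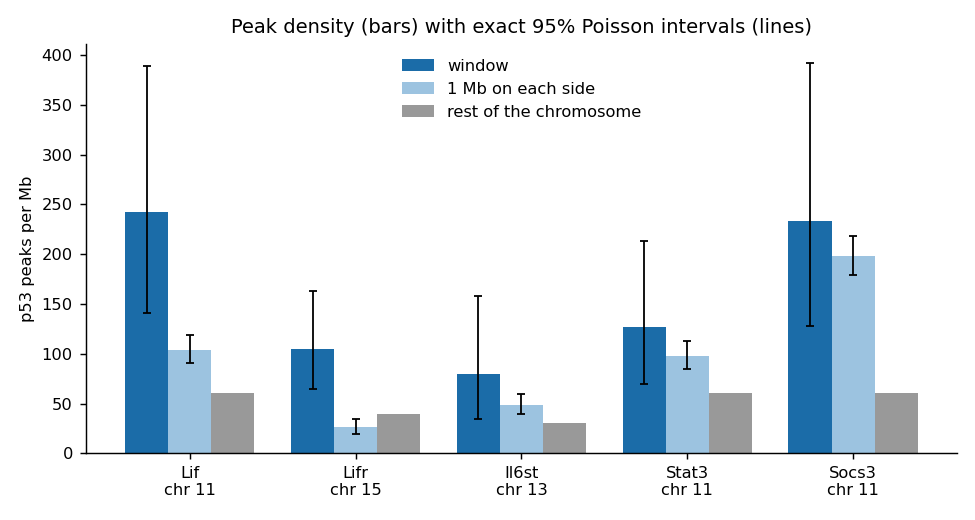
Bars give p53 peaks per Mb in the window, in the 1 Mb on each side of it and on the rest of the chromosome, for each gene, and lines are exact 95% Poisson intervals of the window and its surroundings. The window bar is the tallest of its group for every gene, but at Socs3 (233 against 198), Stat3 (127 against 98.0) and Il6st (80.0 against 48.5) its interval holds the density of the surroundings.

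The same counts looked different against the immediate surroundings. Socs3 had 233 peaks per Mb, against 198 in the 1 Mb on each side, a ratio of 1.18 (0.638 to 2.00), so its density did not stand apart from its neighbourhood. For Stat3 the ratio to the surroundings (98.0 per Mb) was 1.30 (0.697 to 2.23), and for Il6st (48.5 per Mb) it was 1.65 (0.693 to 3.38). Lif remained 2.34 times (1.33 to 3.83) above its surroundings, which held 104 per Mb. Lifr showed the reverse order of comparisons. Its surroundings were poor in peaks, with 26.5 per Mb, and the window exceeded them 3.97 times (2.25 to 6.76), more than it exceeded the chromosome. Lif and Lifr were thus the windows whose intervals excluded 1 against both comparisons. Density of peaks varies widely along these chromosomes, and gene content was not measured here, so its part in these ratios was not tested.

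Each window was also set against all other stretches of its length on its chromosome, and the share that held as many peaks was smallest for Lif. Of 1695 stretches of 70 kb on chromosome 11, 31 (1.83%) held 17 or more peaks, and the median stretch held 3. Of 1977 stretches of 60 kb, 52 (2.63%) held as many as the 14 of Socs3. As many as in the Il6st window (8) were found in 107 of 1168 stretches of 100 kb on chromosome 13 (9.16%). For Lifr it was 70 of 526 stretches of 190 kb on chromosome 15 (13.3%), and for Stat3 165 of 1078 stretches of 110 kb on chromosome 11 (15.3%). By the highest score inside a stretch the order changed. A peak at least as strong as the one in the Socs3 window was found in 6.02% of the stretches of its length, for Lif in 13.6%, for Lifr in 30.6%, for Il6st in 37.0% and for Stat3 in 47.0%. The Stat3 maximum of 401.17 was near that of the median stretch (332), whereas the Il6st maximum of 300.93 stood against 154. These shares are descriptions of the list, not p-values.

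In the Lif and Socs3 windows, peaks lay closer together than on the rest of the chromosome. Gaps shrink as density rises, so this is not independent of the densities above. Gaps were not compared with the 1 Mb on each side, against which the Socs3 density ratio was 1.18 (0.638 to 2.00). A gap inside a window cannot be longer than the window, which holds down the longest values there and not those of the chromosomes. Inside the windows 55 of 68 gaps between neighbouring peaks (80.9%) were at most 10 kb, against 54.3% in the whole list. The median gap was 4670 bases against 8421. Both comparisons include the difference between chromosomes. On the rest of chromosome 11 the share of such gaps was 63.3%, on chromosome 15 58.5% and on chromosome 13 42.3%. The intervals of Lif (100%, 79.4% to 100%) and Socs3 (92.3%, 63.97% to 99.8%) lay above their chromosome's share, at Socs3 only narrowly. Those of Stat3 (76.9%, 46.2% to 94.96%), Lifr (68.4%, 43.4% to 87.4%) and Il6st (57.1%, 18.4% to 90.1%) held it. The Socs3 peaks were the closest, with a median gap of 1859 bases (749 to 4690), against 6150 on the rest of the chromosome. Lif had a median gap of 3776 bases (583 to 5051), against 6148, and all 16 of its gaps were under 10 kb, the longest being 8889 bases. For Socs3 and Lif the upper bound lay below the chromosome's median. For the other windows the interval held the median of the chromosome. Stat3 had a median gap of 5317 bases (2430 to 13131), against 6121, and Lifr 7249 (4402 to 10851), against 7219 on chromosome 15. Il6st had 9981 (597 to 38424), against 13501 on chromosome 13. Gaps of at most 1 kb numbered 5 of 16 at Lif (31.3%) and 4 of 13 at Socs3 (30.8%), against 16.0% on the rest of chromosome 11 for each. At the other genes they numbered 2 of 19 at Lifr, 1 of 7 at Il6st and 1 of 13 at Stat3. The Lifr median gap thus lay at that of its chromosome, with a peak density 2.63 times that of the chromosome. This was not particular to Lifr. The median gap was 0.87 times the chromosome's at Stat3 and 0.74 times at Il6st, with densities of 2.08 and 2.64 times. Density is taken over all bases and the median gap over peaks, so they need not change by the same factor.

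**Figure D4:**
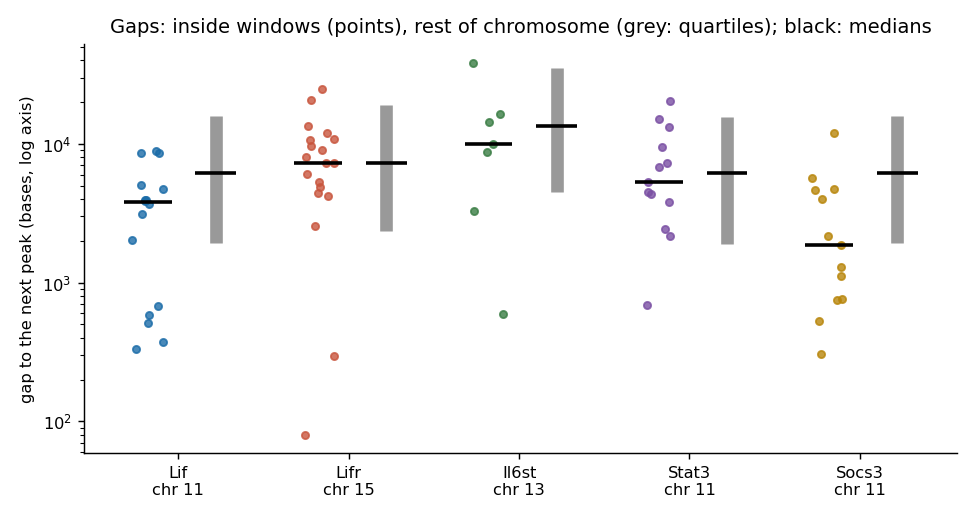
Points are the gaps between neighbouring peaks inside each window (bases, log axis) with their median as a black line, and the grey bar beside them spans the quartiles of the gaps on the rest of the chromosome, with its median. The medians of Socs3 (1859) and Lif (3776) lie below those of chromosome 11 (6150 and 6148), whereas that of Lifr (7249) lies on that of chromosome 15 (7219).

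Peaks covered 16.2% of the Lif window, 13.03% of Socs3, 7.65% of Stat3, 5.61% of Lifr and 3.96% of Il6st. The rest of chromosome 11 was covered to 3.56%, of chromosome 15 to 2.28% and of chromosome 13 to 1.63%. By their medians the peaks were of usual width for their score, with a few single exceptions. Median widths were 545 bases at Lif, 519 at Lifr, 480 at Il6st, 554 at Stat3 and 535 at Socs3, against 524 on the rest of chromosome 11, 518 on chromosome 15 and 492 on chromosome 13. Among peaks of 100 to under 1000, the medians were 702 bases at Lif (6 peaks), 641 at Lifr (8), 508 at Il6st (6), 636 at Stat3 (3) and 635 at Socs3 (5). On the rest of their chromosomes this class had medians of 651, 641, 600, 652 and 652 bases in the same order. Each of these window medians lay within the quartiles of its chromosome. Width and score were related across the 73 peaks (Spearman rho 0.59, and 0.61 over the whole list), a description only, since both were set by the same peak caller. Besides the 2114-base Lif peak, a Stat3 peak of score 93.36 from 100731847 to 100732965 was wide for its score at 1119 bases, against a median of 460 and an upper quartile of 542 for scores under 100 on the rest of chromosome 11. It is named because of its width, after the values were seen.

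**Figure D5:**
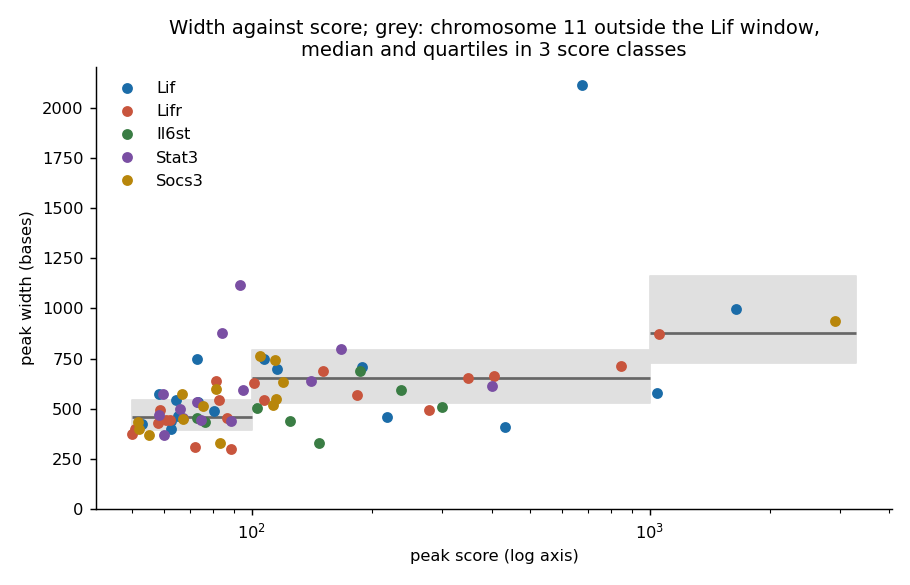
Each point is a peak of the windows, by its score (log axis) and its width in bases; grey bands are the quartiles and lines the medians of chromosome 11 outside the Lif window in 3 score classes, which peaks of chromosomes 13 and 15 are drawn against for orientation only. The Lif peak of 2114 bases and score 675.49 lies far above the band of its class (531 to 793), and the Stat3 peak of 1119 bases lies above that of the weak class (396 to 542).

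The limits of the windows decide which peaks are members. Widened by 20 kb on each side, the Socs3 window held 29 peaks in place of 14. Its density ratio to the rest of the chromosome was then 4.76 in place of 3.82, and its median score ratio 1.31 in place of 0.95. For the other windows the density ratio after widening lay from 2.18 (Stat3) to 4.02 (Lif). The order of Lif and Socs3 by density was thus reversed by widening. At Il6st, a peak of score 102.92 from 113329690 to 113330559 has its midpoint 124 bases outside, next to the member of score 237.16. At Lif, the first member (432.68) has its midpoint only 0.0275 kb inside the edge. Its neighbour outside, of score 87.83, has its midpoint 1144 bases from the edge. The last Lif member (65.26) is also close to the edge, with its midpoint at 69.83 kb of the 70 kb. It has a neighbour outside of score 78.93 at 2179 bases. At Socs3 the nearest peaks outside scored 136.80 on the left and 117.38 on the right, next to members of 52.12 and 51.73. At Stat3 they scored 67.35 and 144.13, next to members of 58.34 and 88.63. At Lifr the outside neighbours were stronger than the outermost members, with 660.99 and 179.07 next to 88.55 and 50.85; their midpoints lay 9416 and 7058 bases from the edges.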

How the data were processed

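p53 ChIP and input libraries were assigned by their titles. The deposited list has 92924 peaks with position, name and score. The authors called peaks with MACS 1.4.1 on mm9 after CASAVA 1.8.2, per the submitters' processing notes; the aligner, the depth and the caller settings are not given in these sources. The score was deposited as the authors' caller wrote it; this caller writes -10 times log10 of a p-value against input, and the lowest value is 50. Scores were used only to rank peaks inside this list. Starts are printed counted from 1.

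The windows, motifs and gene list were chosen with earlier results of these data known. Every peak of 100 or more and the closest pair of each window were named. The rest of a chromosome runs from its first to its last peak without the window in question; stretches of equal length were laid end to end from the window outward. Densities have exact Poisson intervals, ratios exact conditional ones, shares Clopper-Pearson intervals and medians order-statistic intervals, all 95%. Alternatives were a score minimum of 100, merging of peaks up to 1 kb apart, windows widened by 20 kb, the 1 Mb on each side as comparison, and membership by any overlap. The functions were tested on simulated lists. Python 3.11.15, NumPy 2.4.6, pandas 2.3.3, SciPy 1.17.1 and Matplotlib 3.10.9 were used. Peaks near the 25 other pathway genes were not counted, because no mm9 annotation was used.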

Additional observations from a re-analysis of the deposited data

How the results depend on the processing

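Of 50 alternative values, 48 stayed within the interval of the value reported, or within 1.5 times for a number of peaks. With few peaks these intervals are wide, such as 1.14 to 5.21 for the Il6st density ratio, so staying within them is a weak check. The change of the Lif median score ratio from 0.93 to 1.67 also stayed within its interval. With a score minimum of 100 the Stat3 density ratio to the rest of chromosome 11 was 1.08 (3 peaks), against 2.08 with all peaks. With the 1 Mb on each side as comparison the Socs3 ratio was 1.18, against 3.82. The cause was not tested in either case. Under the alternatives the density ratios of Lif, Lifr and Il6st ranged from 1.65 to 4.52. The lowest was that of Il6st against the 1 Mb on each side, with an interval of 0.693 to 3.38 that holds 1. The highest were those of Lif and Il6st with a score minimum of 100. The Lif median score, 0.93 times that of its chromosome, was 1.67 times with peaks up to 1 kb apart merged, each region taking its highest score. Membership by any overlap added 1 peak, at Il6st (9 in place of 8). Unknown read depth limits statements on weak peaks. No paired analysis was possible because the p53 ChIP and the input have 1 library each, so no replicate could be left out either.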
